A study of Bos grunniens and Bos grunniens x Bos taurus with 2 samples.

Results

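*HMGB4* and *TNP1* are genes of spermatid chromatin, and their UMI counts (unique molecular identifiers, 1 per captured transcript molecule) were followed through every cell group of a yak testis library and a cattle-yak testis library. They are 2 of the 26961 genes of the yak annotation and were found by symbol, as ENSBGRG00000009335 (*HMGB4*) and ENSBGRG00000002189 (*TNP1*). Both were picked because earlier results from these files showed them in yak spermatids and at 0 in the cattle-yak, so their levels by cell type and by library are given as a description, without a test.

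Spermatids are the haploid cells that become sperm, and during this change most of their histones are exchanged first for transition proteins and then for protamines. *TNP1* encodes transition protein 1, a small basic protein of this exchange, and *HMGB4* encodes a testis member of the HMG-box proteins, which bind and bend DNA. Transcription of such genes peaks in round spermatids, and the mRNA is stored before it is translated. Male cattle-yaks, the hybrids of cattle and yak, are sterile, with germ cells that stop before the spermatid stage.

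The yak (*Bos grunniens*) library came from the testis of 1 castrated, healthy and sexually mature animal, and the cattle-yak (*Bos grunniens x Bos taurus*) library from testis collected after sexual maturity. Per the study's methods, which describe the yak, frozen tissue was thawed, digested with collagenase, hyaluronidase and trypsin, filtered and captured on the 10x Chromium system; no treatment or edited allele is named for either animal. Each library is 1 sample, so the spread between animals is unknown, and a difference between them compares these libraries and not the crosses. The labels call the material germ cells, whereas most cells carried somatic markers.

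The yak library held 11991 cells with 60816600 UMIs (median 2533 per cell) and the cattle-yak library 8930 cells with 43774841 UMIs (median 3155). "Kept" cells lay within 2 standard deviations of the mean UMIs and genes of their library and under 30% mitochondrial UMIs. "Deep" cells lay above the upper limit of UMIs, of genes or of both, and also under 30% mitochondrial UMIs. In the yak these limits were 21212 UMIs and 3637 genes, so a deep cell could hold fewer than 21212 UMIs. There were 10324 kept and 790 deep yak cells, and 7092 kept and 528 deep cattle-yak cells. The study's per-barcode annotation typed 1127 yak cells, all of them found in the matrix, as spermatogonial stem cells (SSC), spermatogonia (SPG), early and late spermatocytes (early-SPC, late-SPC) and spermatids (SPT). All other cells were named from clusters made without *HMGB4*, *TNP1* and the chromatin genes described further on, and carry the ending "-like". The libraries shared 24 barcodes, which held 4 *HMGB4* UMIs and 1 *TNP1* UMI in the yak.

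In the yak, *HMGB4* had 11852 UMIs in 863 cells and *TNP1* had 2252 UMIs in 325 cells. Most of both lay in very few cells. The 71 deep SPT-like cells, 0.592% of the cells and 4.30% of all UMIs, held 77.0% of the *HMGB4* UMIs (exact binomial 95% interval 76.3 to 77.8%) and 76.6% of the *TNP1* UMIs (74.8 to 78.4%). A further 145 kept SPT-like cells outside the annotation, with 0.974% of all UMIs, held 11.9% and 12.1%. The 224 cells typed SPT, with 0.447% of all UMIs, held 4.01% and 4.31%. The 50 cells richest in *HMGB4* carried 68.1% of its UMIs, and the 50 richest in *TNP1* carried 72.2% of its own. Of the 66 cells with at least 50 *HMGB4* UMIs, 60 were deep SPT-like and 6 were kept cells. The upper limits on depth thus set aside the cells with most of the UMIs of both genes.

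**Figure D1:**
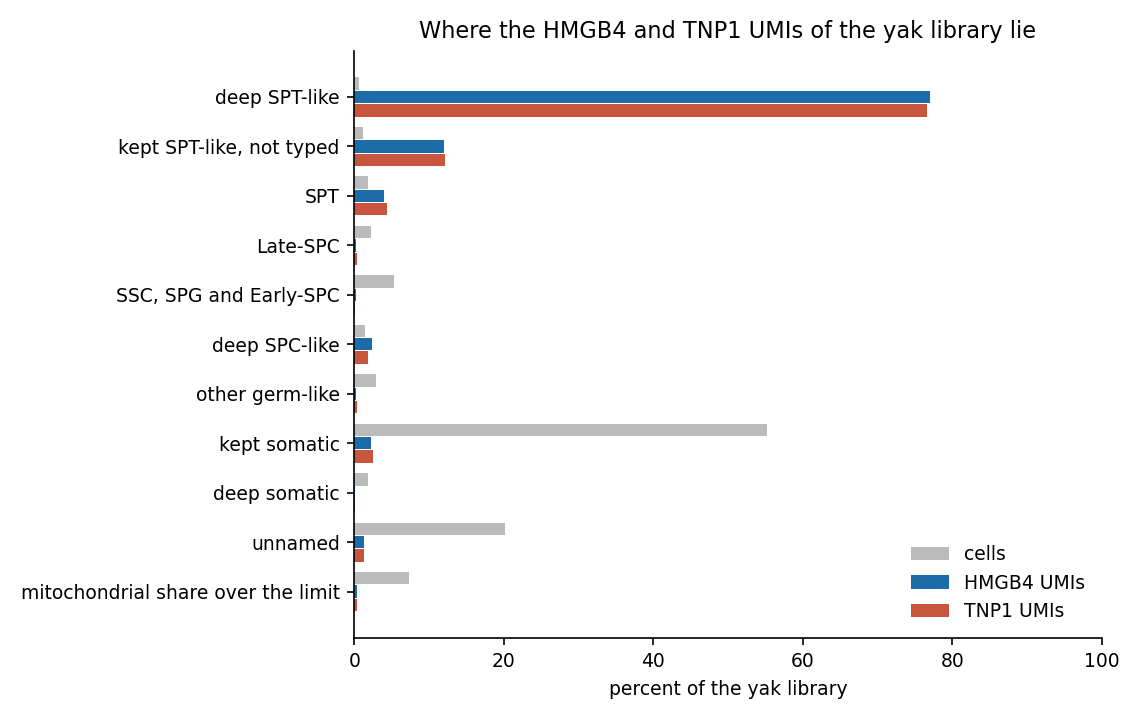
Share of the yak library's cells (grey), *HMGB4* UMIs (blue) and *TNP1* UMIs (red) in each of 11 cell groups that do not overlap, in percent. The 71 deep SPT-like cells are 0.592% of the cells and hold 77.0% and 76.6% of the UMIs of both genes, whereas the 6625 kept somatic cells are 55.2% of the cells and hold 2.25% and 2.53%.

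Levels were given in CPM, the summed UMIs of a gene scaled to a common total of UMIs per group, with exact Poisson 95% intervals, and these intervals and every other interval here cover counting error only. In the 224 SPT, *HMGB4* stood at 1749 CPM (1595 to 1913; 475 UMIs) and *TNP1* at 357 CPM (290 to 436; 97 UMIs). In the 45 cells of the first deep SPT-like cluster *HMGB4* reached 4284 CPM (4184 to 4386; 6931 UMIs) and *TNP1* 922 CPM (876 to 970; 1492 UMIs). In the 26 cells of the second deep SPT-like cluster the levels were 2199 CPM (2108 to 2293) for *HMGB4* and 234 CPM (205 to 266) for *TNP1*. The kept SPT-like cells that were not typed had 2391 CPM (2268 to 2519) of *HMGB4* and 461 CPM (408 to 519) of *TNP1*. Their cluster of 560 cells also held cells typed as other than SPT, and at a clustering resolution of 2 only 128 kept cells took the name SPT-like. At that resolution a shallow cluster of 209 kept cells (median 809 UMIs) had 14 of 17 SPT-like markers enriched but stayed unnamed. Of the 145 cells, 48 had UMIs of neither gene, among them a cell of 12074 UMIs. Their level and its place among the groups are thus those of a mixture. All SPT and SPT-like groups thus lay far above every other yak group.

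Among the other germ cells, late-SPC had 69.3 CPM of *HMGB4* (47.7 to 97.3; 33 UMIs in 261 cells) and 16.8 CPM of *TNP1* (7.25 to 33.1; 8 UMIs). Early-SPC had 14.05 CPM of *HMGB4* (3.83 to 36.0; 4 UMIs in 72 cells) and 3.51 CPM of *TNP1* (1 UMI). SPG had 30.7 CPM of *HMGB4* (18.5 to 48.0; 19 UMIs in 486 cells) and 3.23 CPM of *TNP1* (2 UMIs). SSC had 19.6 CPM of *HMGB4* (4.04 to 57.3; 3 UMIs in 84 cells) and 0 *TNP1* UMIs, which allows up to 19.6 CPM. Of these types only late-SPC stood above the kept somatic cells for both genes with intervals that left out 0, by 2.57 (2.01 to 3.10) and 2.76 (1.48 to 3.83) on the log2 scale.

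Of the 5 deep SPC-like clusters, only the one of 50 cells carried much of either gene, with 134.5 CPM of *HMGB4* (118 to 152; 247 UMIs) and 16.9 CPM of *TNP1* (11.5 to 24.0; 31 UMIs). The other deep SPC-like clusters, of 49, 40, 17 and 16 cells, ranged from 4.14 to 7.14 CPM of *HMGB4* and from 1.02 to 2.55 CPM of *TNP1*. The 163 deep SPG-like cells had 3.39 CPM (1.80 to 5.80) and 1.56 CPM (0.574 to 3.40). The 50-cell cluster was also the deep SPC-like cluster with the highest summed level of the SPT-like naming markers, 1469 CPM against 43.9 to 90.3 CPM in the other deep SPC-like clusters, and at a clustering resolution of 2 a set of 25 cells that took the name SPT-like had 258 CPM of *HMGB4* and 33.1 CPM of *TNP1*.

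**Figure D2:**
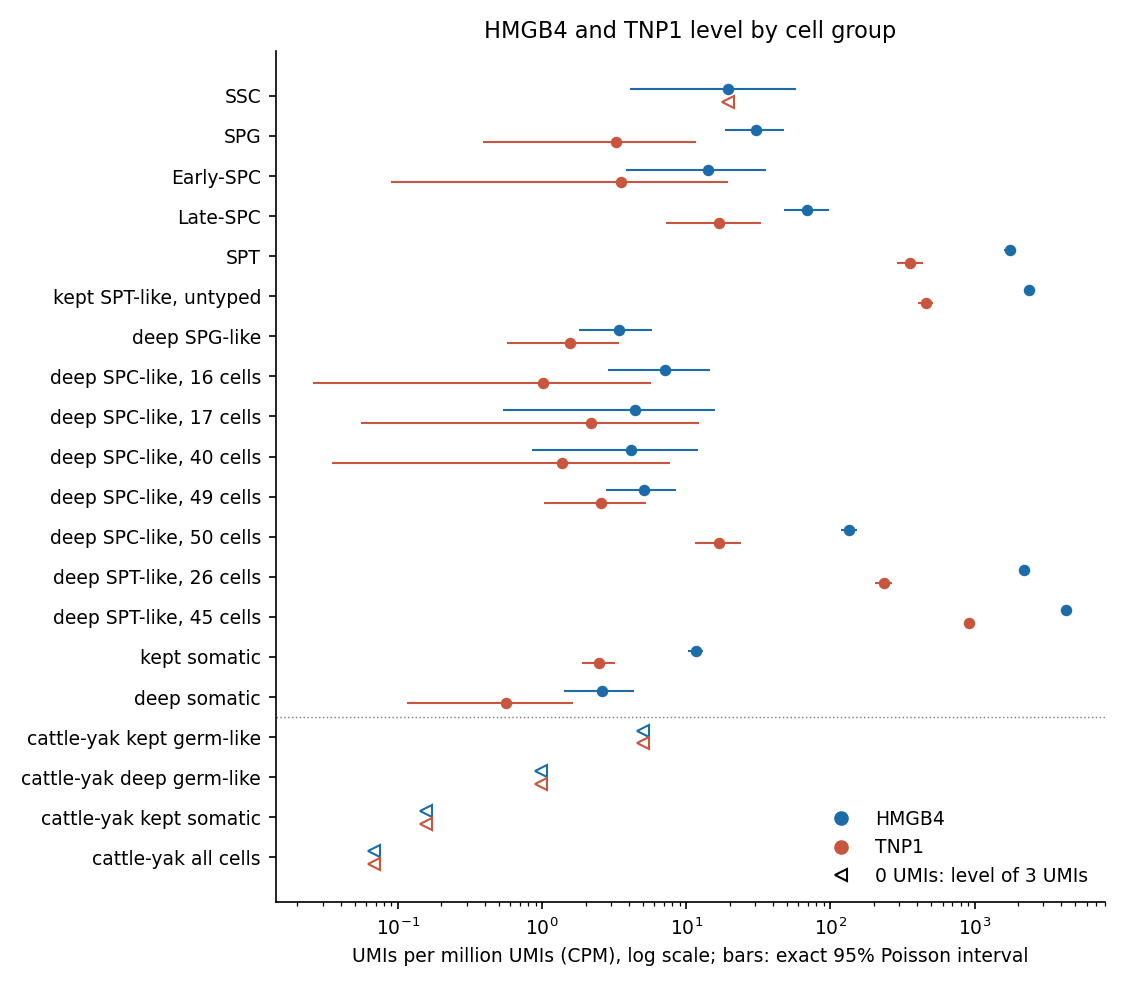
Level of *HMGB4* (blue) and *TNP1* (red) in each group of the yak and, under the dotted line, of the cattle-yak, as CPM on a log axis. Points are summed UMIs with exact Poisson 95% intervals, and open triangles mark 0 UMIs, drawn at the level 3 UMIs would give. The 45-cell deep SPT-like cluster is highest for both genes, at 4284 and 922 CPM, and all cattle-yak groups are at 0.

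On the log2 scale SPT were above late-SPC by 4.66 (exact conditional 95% interval 4.15 to 5.21) for *HMGB4* and by 4.41 (3.37 to 5.66) for *TNP1*, and above kept somatic cells by 7.23 (7.01 to 7.45) and 7.17 (6.68 to 7.67). With 1 CPM added to each side the values against late-SPC were 4.64 and 4.33, and with every cell weighted equally 3.56 and 3.31. Deep SPT-like cells were above SPT by 1.00 (0.86 to 1.13) for *HMGB4* and by 0.88 (0.59 to 1.20) for *TNP1*. The contrast planned beforehand took all 406 deep germ-like cells, of which 71 were SPT-like, against SPT. With 1 CPM added, its log2 ratio was -1.29 (-1.43 to -1.16) for *HMGB4* and -1.40 (-1.70 to -1.09) for *TNP1*. In descending order of *HMGB4* the groups were the 45-cell deep SPT-like cluster, the untyped kept SPT-like cells, the 26-cell deep SPT-like cluster, SPT, the 50-cell deep SPC-like cluster, late-SPC and SPG, and the interval of each of these neighbouring ratios left out 0. From SPG downwards no neighbours in the order could be separated. For *TNP1* the order of the first groups was the same except that SPT stood above the 26-cell cluster, by 0.61 on the log2 scale (0.25 to 0.96). The 50-cell deep SPC-like cluster and late-SPC could not be separated for *TNP1*, with a log2 ratio of 0.01 (-1.15 to 1.34).

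Markers of other cell types moved with depth among the SPT groups. In SPT, whose median depth was 906 UMIs, the 11 MC-like markers (smooth muscle and myoid genes such as *ACTA2*) summed to 3431 CPM and the 14 T/NK-like markers to 1049 CPM, against 491 and 183 CPM in the deep SPT-like cells, whose median depth was 34178 UMIs. The 12 EC-like markers summed to 405 CPM in SPT and 59.6 CPM in the deep SPT-like cells. In the classes these lists name, the kept MC-like and T/NK-like cells, the same lists stood at 38708 and 8372 CPM. The part of these markers in the higher levels of the deep cells was not tested. The macrophage-like list stood at 1643 CPM in the deep SPT-like cells, of which *AIF1* alone was 1584 CPM, and without *AIF1* the list was at 59.2 CPM there and at 4387 CPM in macrophage-like cells. The 17 SPT-like markers themselves were all detected in both groups, at 6660 CPM in SPT and 13146 CPM in the deep SPT-like cells. Median mitochondrial share was 8.86% in SPT and 0.268% in deep SPT-like cells, and none of the 71 deep SPT-like cells was among the 10% of yak cells with the highest doublet scores, although the doublet caller made 0 calls in this library and so cannot be relied on.

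Seen cell by cell, all 71 deep SPT-like cells had *HMGB4* and 70 of them had *TNP1*. In the 45-cell cluster single cells carried from 60 to 561 *HMGB4* UMIs (median 148) and from 12 to 121 *TNP1* UMIs (median 29). In the 26-cell cluster they carried from 12 to 267 *HMGB4* UMIs (median 61.5) and from 0 to 30 *TNP1* UMIs (median 7.5). Scaled to depth, *HMGB4* ran from 2988 to 5957 CPM in the first cluster (median 4119) and from 604 to 3992 CPM in the second (median 2236), so the ranges of both clusters overlapped. *TNP1* ran from 371 to 1995 CPM (median 825) and from 0 to 518 CPM (median 246), with a narrower overlap.

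Of the 224 SPT, 42 had UMIs of both genes, 97 of *HMGB4* alone, 10 of *TNP1* alone and 75 of neither. *HMGB4* was thus detected in 62.1% of SPT (exact binomial 55.4 to 68.4%) and *TNP1* in 23.2% (17.8 to 29.3%). SPT with a *HMGB4* UMI had 459 CPM of *TNP1* (367 to 568), and SPT without one had 139 CPM (71.7 to 242). In the 50-cell deep SPC-like cluster 34 cells had *HMGB4*, with at most 35 UMIs in a cell, 17 of them also had *TNP1*, and no cell had *TNP1* alone. Over the 71 deep SPT-like cells the Spearman correlation of both genes' CPM was 0.840, within the clusters it was 0.525 (45 cells) and 0.728 (26 cells), and over the SPT it was 0.252. These are descriptions of cells of 1 library, in which both values are divided by the same depth.

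**Figure D3:**
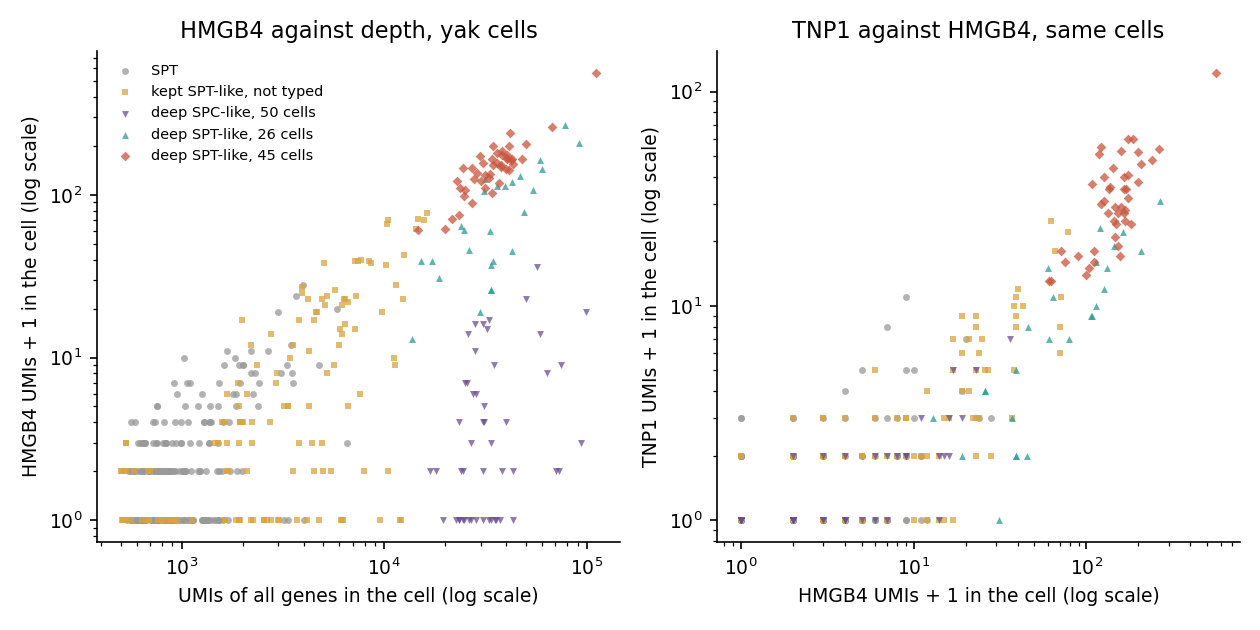
Single yak cells of 5 groups. Left, *HMGB4* UMIs plus 1 against the UMIs of all genes in the cell; right, *TNP1* UMIs plus 1 against *HMGB4* UMIs plus 1, all axes logarithmic. The 45-cell deep SPT-like cluster sits at 60 to 561 *HMGB4* UMIs, the 26-cell cluster at 12 to 267, and cells of the 50-cell deep SPC-like cluster of like depth at 0 to 35.

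Because depth differed between groups, cells were also thinned to 1000 UMIs each. At this depth *HMGB4* was found in 64.3% of 98 SPT (54.0 to 73.7%; 126 shallower SPT left out), in 97.8% of the 45-cell and 92.3% of the 26-cell deep SPT-like cluster, and in 4.88% of 164 late-SPC (2.13 to 9.38%). *TNP1* was found in 26.5% of the same SPT (18.1 to 36.4%), in 55.6% of the 45-cell deep SPT-like cluster (40.0 to 70.4%) and in 1.83% of late-SPC. In the 26-cell cluster it was found in 2 cells, 7.69% (0.946 to 25.1%), an interval that overlaps that of SPT. The share in this cluster was 11.5% at 500 UMIs and 34.6% at 2000 UMIs. In the kept somatic cells, which should lack both genes, the thinned shares were 1.29% for *HMGB4* and 0.366% for *TNP1*, and the unthinned shares were 3.85% and 0.860% at a median depth of 2521 UMIs. SPG stood above kept somatic cells in CPM for *HMGB4* (log2 1.40, 0.65 to 2.07). Their thinned share depended on the depth, with 1.27% of 237 SPG (0.262 to 3.65%) at 1000 UMIs, where 249 shallower SPG were left out, and 2.67% of all 486 SPG (1.43 to 4.53%) at 500 UMIs, against 0.694% (0.509 to 0.925%) in kept somatic cells at 500 UMIs. Whether SPG express *HMGB4* was not tested.

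The clusters of deep SPT-like cells differed in the balance of the genes. *HMGB4* was higher in the 45-cell than in the 26-cell cluster by 0.96 on the log2 scale (0.89 to 1.03), and *TNP1* by 1.98 (1.78 to 2.18). *TNP1* made up 17.7% (16.9 to 18.5%) of the UMIs of both genes in the 45-cell cluster and 9.62% (8.48 to 10.9%) in the 26-cell cluster. In the 50-cell deep SPC-like cluster the share was 11.2% (7.70 to 15.4%), in SPT 16.96% (13.97 to 20.3%) and in untyped kept SPT-like cells 16.2% (14.4 to 18.0%). At a clustering resolution of 2 the 26-cell cluster stayed whole, and the 45 cells fell into sets of 34 and 11, with *TNP1* shares of 18.6% (17.7 to 19.6%) and 13.8% (12.1 to 15.6%). Relative to the 45-cell cluster, *HMGB4* was therefore closer to its top level in the 26-cell cluster than *TNP1* was.

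Free RNA in the cell suspension gives droplet barcodes UMIs of genes their cell does not express. The few UMIs in somatic cells were described by class, and whether free RNA was their source was not tested. Across the 6 kept somatic classes *HMGB4* ranged from 4.21 CPM in pericyte-like to 17.8 CPM in macrophage-like cells and *TNP1* from 1.09 to 3.84 CPM. *HMGB4* was highest in the shallowest classes, the T/NK-like and macrophage-like cells. Counted per barcode, *HMGB4* ranged from 2.34 to 6.57 UMIs per 100 cells in kept classes. In the 2 deep classes with over 100 cells it ranged from 3.92 to 8.11. Median depth of these classes ran from 1941 to 23063 UMIs. *TNP1* ranged from 0.587 to 1.40 UMIs per 100 kept cells and from 0.901 to 1.96 per 100 deep cells. No kept somatic cell held more than 2 UMIs of *HMGB4* or 1 of *TNP1*. In all kept somatic cells together *TNP1* was 17.6% of the UMIs of both genes (13.6 to 22.2%), beside 15.97% (15.4 to 16.6%) in the whole library. Late-SPC, with 12.6 *HMGB4* and 3.07 *TNP1* UMIs per 100 cells, lay above the kept somatic range for both genes, whereas SPG (3.91 and 0.412) and SSC (3.57 and 0) did not.

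**Figure D4:**
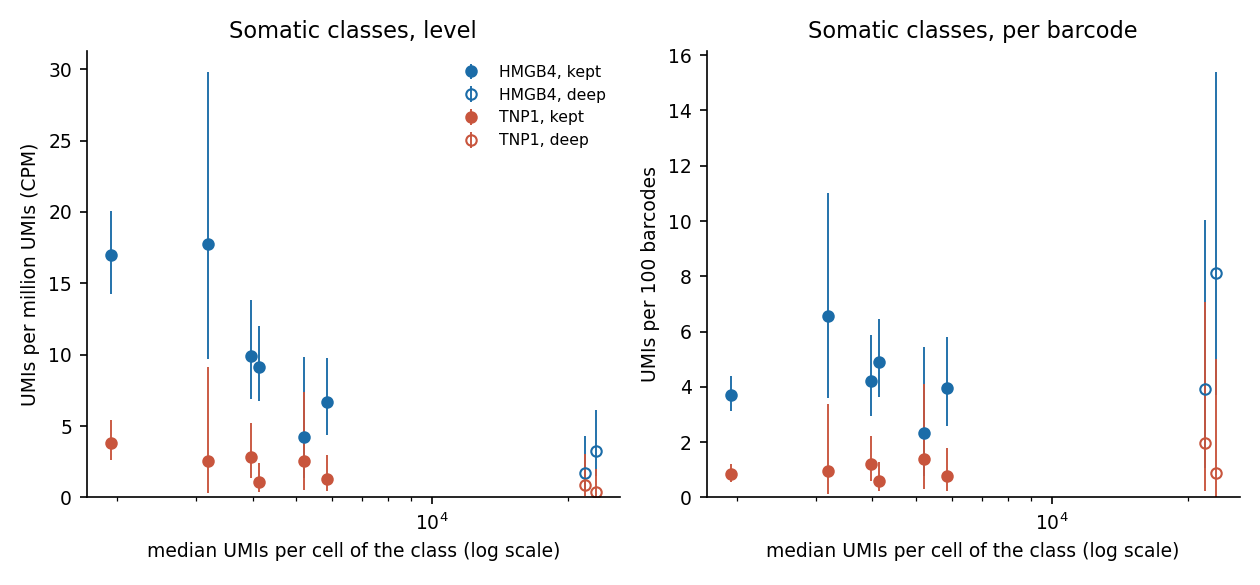
*HMGB4* (blue) and *TNP1* (red) in yak somatic classes against the median depth of the class (log axis), left as CPM and right as UMIs per 100 barcodes. Filled points are kept and open points deep classes, with exact Poisson 95% intervals. *HMGB4* CPM is highest in the shallow T/NK-like and macrophage-like classes, up to 17.8. UMIs per 100 barcodes lie between 2.34 and 8.11 for *HMGB4* and between 0.587 and 1.96 for *TNP1*.

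In the cattle-yak library both genes had 0 UMIs in all 8930 cells. With 43774841 UMIs a count of 0 allows at most 0.0685 CPM (3 counts), so the whole yak library was at least 2844-fold higher for *HMGB4* (195 CPM) and at least 540-fold higher for *TNP1* (37.0 CPM). Each such bound here divides the yak level by the limit and leaves out the interval of the yak level. The low counts of yak somatic cells had no counterpart either: kept somatic cells of the yak held 267 and 57 UMIs and those of the cattle-yak 0 in 5252 cells, a limit of 0.156 CPM. *HMGB4* had the most yak UMIs of all genes at 0 in the cattle-yak. It was thus by definition the 1 gene at 0 there among the 666 genes with at least as many yak UMIs. Of 4043 genes with at least as many as *TNP1*, 18 were at 0 there. Both genes were picked with their counts of 0 known, so these places are a description and no test.

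The cattle-yak germ-like cells were 112 kept SPC-like cells and, among the deep cells, 64 SPC-like and 55 SPG-like cells. No cattle-yak cluster was SPT-like, and a deep cluster of 99 cells, in which *DLK1* led and 10 of 13 SPG-like markers were enriched, met no name. Against germ-like cells of all stages the yak was at least 116-fold higher in kept cells for *HMGB4* (582 CPM against a limit of 5.04 CPM) and at least 22.5-fold for *TNP1* (114 CPM). In deep germ-like cells the bounds were 732-fold and 138-fold. These bounds compare groups with and without spermatids. Between cells named SPC-like, the deep yak cells had 40.5 CPM of *HMGB4* and 6.08 CPM of *TNP1*. Against a limit of 2.07 CPM they were at least 19.6-fold and 2.94-fold higher. Most of these yak UMIs came from the 50-cell cluster, which had the highest SPT-like marker level of the deep SPC-like clusters. The 19.6-fold and 2.94-fold bounds thus rest mostly on a cluster with spermatid markers. The other deep SPC-like clusters of the yak ranged from 4.14 to 7.14 CPM of *HMGB4* and from 1.02 to 2.55 CPM of *TNP1*. In the kept SPC-like cluster of 212 cells, which also held typed cells, the yak had 10.2 CPM of *HMGB4* (5.43 to 17.5). It had 3.14 CPM of *TNP1* there, with a limit of 5.04 CPM for both genes. In deep SPG-like cells it had 3.39 CPM (1.80 to 5.80) and 1.56 CPM, with a limit of 1.84 CPM. The *HMGB4* bounds were only 2.03-fold and 1.84-fold, and *TNP1* lay under the limit. Exact Poisson upper ends for 0 UMIs, 6.20 and 2.27 CPM, lay inside these *HMGB4* intervals. A difference in either gene was thus not shown in these groups at this depth. The result depends on which spermatocytes the group holds. The 261 yak late-SPC, not all of which were in the kept SPC-like cluster, had 69.3 CPM of *HMGB4* (47.7 to 97.3), above the 6.20 CPM. Whether the cattle-yak SPC-like cells are of that stage was not tested.

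The naming markers of spermatids were scarce in the cattle-yak too. Of the 17 SPT-like markers, 14 had a UMI somewhere in the library, and together they had 356 UMIs (8.13 CPM) against 48023 UMIs (790 CPM) in the yak. *CAPZA3*, *ACTL7A* and *SUN5* were at 0, and *ACTRT3* was highest with 105 UMIs. In the germ-like cells of the cattle-yak the list stood at 28.6 CPM (kept) and 20.5 CPM (deep), beside 13146 CPM in yak deep SPT-like cells.

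Other genes of spermatid chromatin and of its regulation were read from 6 lists with 59 further symbols, of which 35 were in the annotation. *TNP2*, the protamine genes, *HMGB1*, *HMGB3* and most testis histones were not found by symbol and were not analysed here. Deep SPT-like cells were first set against deep SPC-like cells, as log2 of CPM plus 1. A ratio of at least 1 in either direction was counted as a call. That contrast was not planned beforehand, and its counts were not rerun under other settings. The planned list contrasts, SPT against kept somatic cells and cattle-yak against yak germ-like cells, follow further on. Of 34 list genes measured, 10 were higher and 14 lower, and over all 11154 genes tested 23.2% were higher and 41.7% lower, 64.9% in either direction. The median log2 ratio was -0.48 over the list and -0.65 over all genes, so in this contrast the list as a whole lay near the background.

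By role, the transcription factor list had the most higher genes, 6 of 8. *FHL5*, a coactivator of *CREM*, was higher by 7.40 (595 against 2.52 CPM), *SOX30*, a factor of spermiogenesis, by 2.21 (256 against 54.6 CPM), *SOX5* by 1.90 and *CREM*, an activator of spermatid genes, by 1.37 (82.1 against 31.2 CPM). *RFX2*, a factor of cilium and spermatid genes, was lower, at 8.02 against 32.3 CPM. Of the 14 measured readers, writers and remodellers of histones 3 were higher, a share near that of all genes, and 5 were lower. Those higher were *TSSK6*, a testis kinase, by 4.64 (31.3 against 0.297 CPM), *CHD5*, a remodeller of the histone exchange, by 3.76 (502 against 36.2 CPM), and *CDYL*, a chromodomain protein, by 2.67 (277 against 42.7 CPM).

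The 14 lower genes were 1 HMG-box gene, 2 histone genes, 5 readers, writers and remodellers, 2 transcription factors and 4 genes of mRNA storage and translation. *HMGB2*, the relative of *HMGB4* found in the annotation, was lower in deep SPT-like cells by a log2 ratio of -3.35 (16.4 against 176 CPM), opposite to *HMGB4*. *H2AX*, a histone variant of the DNA damage response, had 0 UMIs (exact Poisson upper end 1.41 CPM) against 3.86 CPM. *HDAC1*, a histone deacetylase, stood at 29.4 against 176 CPM, *TOP2B*, a topoisomerase, at 13.4 against 90.3 CPM, and *CTCFL*, a testis relative of CTCF, at 10.3 against 61.1 CPM. *BRDT*, which reads acetylated histones, was within the limit at 360 against 489 CPM, as were *KAT8* (671 against 507 CPM), *PHF7* (147 against 200 CPM) and *RNF8* (120 against 155 CPM). Of the 9 measured genes of mRNA storage and translation 1 was higher, 4 were lower and 4 were within the limit. *PAIP2*, a repressor of poly(A)-binding protein, was higher by 3.03, *PABPC1*, a poly(A)-binding protein, was among those lower (607 against 1479 CPM), and *YBX2* (834 against 1337 CPM) and *DDX25* (1053 against 1423 CPM), both of which serve mRNA storage in germ cells, were within the limit.

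Between the deep SPT-like clusters, 4 of 32 measured list genes were higher in the 45-cell cluster and 5 lower, with 15.1% and 21.7% over all 7130 genes (36.8% either way). The median log2 ratio was -0.29 over the list and -0.33 over all genes, so the list as a whole lay near the background. *FHL5* was higher by 1.44 (784 against 289 CPM), *PAIP2* by 1.59 (342 against 113 CPM) and *TSSK6* by 2.20 (45.1 against 9.005 CPM), and *CTCFL* had 27 UMIs against 0. Those lower were *HDAC1* (10.5 against 60.03 CPM), *CELF1* (6.18 against 31.02 CPM), *TBPL1* (19.8 against 75.04 CPM), *TOP2B* (8.04 against 22.01 CPM) and *SIRT1* (14.8 against 36.02 CPM). *CHD5* (521 against 471 CPM) and *BRDT* (335 against 399 CPM) were within the limit.

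Against kept somatic cells, 20 of 33 measured list genes were higher in SPT and 4 lower, with 26.4% and 36.5% over all 13386 genes (62.9% either way). With the added demand that the interval of the ratio left out 0, 19 were higher and 3 lower. The share over all genes under this demand is not given here, so these counts have no background beside them. *DDX25* (600 against 20.7 CPM), *YBX2* (534 against 21.1 CPM), *MAEL* (335 against 7.71 CPM) and *BRDT* (228 against 4.83 CPM) were among those higher, all under the 1749 CPM of *HMGB4*. SPT held only 271625 UMIs, and in simulated data this contrast called 3882 of 13201 unchanged genes, 192 of them with an interval that left out 0, so the background shares of this contrast hold much counting error. Against late-SPC, 7 of 29 measured list genes were higher in SPT and 7 lower, with 21.1% and 27.9% over all 5138 genes.

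**Figure D5:**
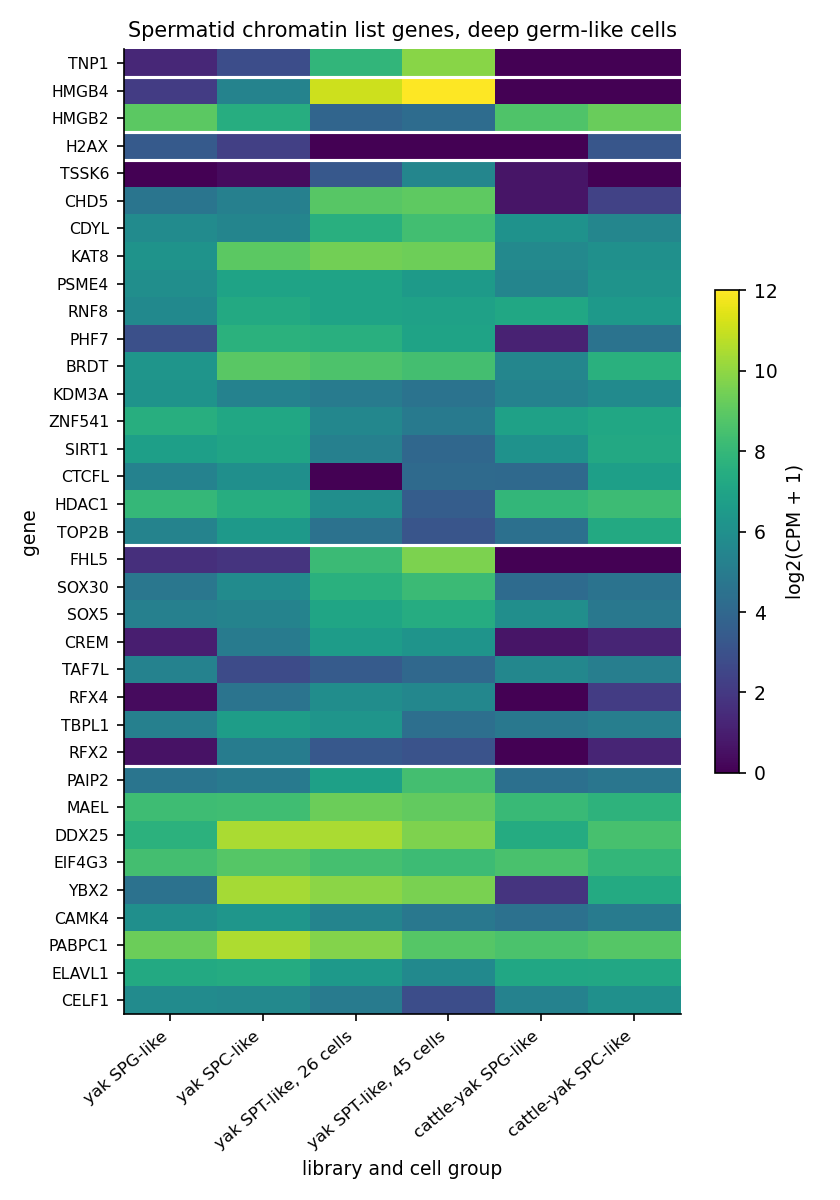
Level, as log2(CPM + 1), of 35 measured genes of the 6 lists in deep germ-like groups of the yak and the cattle-yak. White lines separate the lists, and within a list genes are ordered by the ratio of deep SPT-like to deep SPC-like cells. *HMGB4*, *TNP1* and *FHL5* are bright only in the SPT-like columns and dark in both cattle-yak columns, while *HMGB2* and *HDAC1* are brighter outside the SPT-like columns.

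In cattle-yak kept germ-like cells, 1 of 34 measured list genes was higher than in yak kept germ-like cells and 14 were lower, with 6.10% and 30.1% over all 10331 genes (36.2% either way). The higher gene was *CTCFL* (170 against 81.2 CPM), and those lower included *YBX2* (60.5 against 373 CPM) and *CHD5* (6.72 against 87.4 CPM). *FHL5* and *CREM* had 0 UMIs, a limit of 5.04 CPM, against 97.5 and 17.8 CPM. The 112 cattle-yak cells of this contrast were all SPC-like, whereas the 1451 yak cells were of all stages, with SPT among them. In deep SPC-like cells of the cattle-yak against those of the yak, 3 of 32 were higher and 13 lower, with 28.6% and 28.7% over all 10637 genes (57.3% either way). Those higher included *HMGB2* (616 against 176 CPM) and *TAF7L*, a germ cell relative of a TFIID subunit (33.8 against 5.79 CPM). Those lower included *CREM* (1.38 against 31.2 CPM), *RFX2* (1.38 against 32.3 CPM), *PHF7* (22.8 against 200 CPM), *YBX2* (160 against 1337 CPM), *KAT8* (64.1 against 507 CPM) and *BRDT* (197 against 489 CPM). *HMGB4* and *TNP1* were at 0 in the same cells. The SPC-like clusters of both libraries need not hold the same stages either, and stage and library cannot be told apart in either contrast.

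The genes whose levels followed *HMGB4* most closely over 22 yak groups, among 12953 genes with at least 100 UMIs, were ENSBGRG00000000912 (Pearson r 0.986 on log2(CPM + 1)), *CAPZA3*, a testis subunit of the actin capping protein (0.982), *FAM229A* (0.980), *PFN3*, a testis profilin (0.980), and *TEX33* (0.979). *CAPZA3* was among the markers that named SPT-like clusters. Closest to *TNP1* were ENSBGRG00000011308 (0.976), ENSBGRG00000001849 (0.973), *ACTRT1*, an actin-related gene (0.973), *MS4A5* (0.973) and *CCDC196* (0.973). *TNP1* and *HMGB4* correlated with each other at 0.958, which ranked 43rd for *HMGB4* and 70th for *TNP1*. The 22 groups share 1 library, so these values describe likeness of pattern and nothing else. Of these genes, *CAPZA3*, ENSBGRG00000000912, ENSBGRG00000011308, *ACTRT1*, *MS4A5* and *CCDC196* also had 0 UMIs in the cattle-yak, whereas *FAM229A* had 641. Over all 12953 genes 145 (1.12%) were at 0 there. *ACTRT1* and ENSBGRG00000011308 had only 217 and 271 UMIs in the yak. The genes were picked for a pattern like that of *HMGB4* or *TNP1*, and no cattle-yak cluster was SPT-like, so their counts of 0 are a description.

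Among genes other than mitochondrial and ribosomal RNA genes, *HMGB4* ranked 6th by UMIs in the 45-cell deep SPT-like cluster, 29th in the 26-cell cluster and 30th in SPT. *TNP1* ranked 178th, 984th and 433rd. In the RefSeq annotation of another yak assembly (Bosgru_T2T1.0) *HMGB4* lies within the span of *CSMD2*. *CSMD2* had 18 UMIs in the yak library, 2 of them in deep SPT-like cells and 0 in SPT, and 3 in the cattle-yak library. Whether reads of *CSMD2* transcripts were counted to *HMGB4* was not tested.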

How the data were processed

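Testis cells of 1 yak and 1 cattle-yak were sequenced with the 10x system, 1 library each. The authors deposited raw counts of UMIs per gene and barcode, not normalized, made by Cell Ranger (the file header names 5.0.0, the submitters' processing notes 2.1.1) with reads mapped to the yak genome. Here counts were read as sparse matrices. Libraries were filtered by the limits the study's methods give, mean ± 2 standard deviations of genes and UMIs and under 30% mitochondrial UMIs. This kept 10324 of 11991 yak cells, more than the study states for its own filter, and the reason is not known. The cells above the upper limit of UMIs or of genes, and under the mitochondrial limit, were analysed apart as deep cells. Kept and deep cells were clustered separately with scanpy 1.11.5 and igraph 0.11.9 (Leiden, 2000 variable genes, 30 components, 15 neighbours, resolution 1, seed 0), leaving out *HMGB4*, *TNP1* and the chromatin lists. A cluster took a name with at least 3 markers at a log2 ratio of at least 1 that were detected in 10% or more of the cluster. Where leading genes went against the name, or where lists tied and not all were germ lists, it stayed unnamed. A cluster of much lower median depth than its set of cells also needed a marker of its own list among its leading genes. Germ types came from the study's annotation of barcodes.

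Levels are summed counts as CPM with exact Poisson 95% intervals, shares have exact (Clopper-Pearson) binomial intervals, and ratios exact conditional intervals. Intervals cover counting error only, UMIs of 1 cell are not independent samples, and a count of 0 was given as a limit of 3 counts. List genes needed at least 20 summed UMIs and were called at a log2 ratio of at least 1 with 1 CPM added. With 1 library per group there is no replicate check and no p-value. The members and lists were chosen with earlier results of these data known. The 5 genes nearest to each gene were those with the highest correlation over groups. Of the list genes, 1 was counted but is not reported here. Named list genes were any of those measured, with the extremes of each list. The contrasts between deep clusters, between SPC-like cells of the libraries and with the interval demand were added after seeing the data. The contrasts of deep SPT-like cells with SPT and with deep SPC-like cells were not planned beforehand either. Nor was the share of UMIs in deep SPT-like cells. On simulated data with 200 genes changed 4-fold, the deep SPT-like contrast recovered 100% of raised and 95% of lowered genes and called 70 of 10901 unchanged genes. Doublets were not removed: the caller marked 0 yak cells and 2.81% of cattle-yak cells. Python 3.11.15, numpy 2.4.6, scipy 1.17.1 and pandas 2.3.3 were used. No sequence of this assembly was used here.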

Additional observations from a re-analysis of the deposited data

How the results depend on the processing

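No paired analysis was possible because each group has 1 library, and for the same reason no replicate was left out. Of 130 alternative values none turned direction. Of these, 88 stayed within the counting interval of the value at the main settings or within 1.5 times the count, and 42 moved. The cause of the moves was not tested beyond what each setting changes. At the main settings log2 ratios between yak groups had 1 CPM added to each side, so they can differ from the ratios given above without it.

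The level of *HMGB4* in SPT became 2102 CPM without mitochondrial and rRNA features, 1496 CPM with every cell weighted equally and 1994 CPM without the 10% highest doublet scores. SPT against late-SPC became 3.56 for *HMGB4* and 3.31 for *TNP1* with cells weighted equally. SPT against kept somatic cells stood at 7.11 (*HMGB4*) and 6.68 (*TNP1*) at the main settings with 1 CPM added. The ratios became 6.39 and 6.09 with cells weighted equally, and 6.72 and 5.597 with 5 CPM added. Deep SPT-like against SPT became 0.75 for *HMGB4* without mitochondrial and rRNA features, 1.21 with cells weighted equally and 0.81 without high doublet scores, and for *HMGB4* and *TNP1* 0.61 and 0.49 at a resolution of 2 and 0.58 and 0.46 with deep and kept cells clustered together. All deep germ-like cells against SPT became -1.44 for *HMGB4* without mitochondrial and rRNA features. The share of *HMGB4* UMIs in deep SPT-like cells became 76.1% with limits on log10 values, 78.9% at a resolution of 2 and 79.0% clustered together.

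The log2 bound of yak over cattle-yak kept germ-like cells became 6.36 (*HMGB4*) and 4.00 (*TNP1*) at a mitochondrial limit of 20%, 6.72 for *HMGB4* without mitochondrial and rRNA features, 6.46 and 4.11 with cells weighted equally, 7.31 and 4.95 clustered together, and 6.45 and 4.06 without high doublet scores. Shares of SPT with a UMI became 45.5% and 11.2% thinned to 500 UMIs and 82.6% and 56.5% at 2000, and of kept somatic cells 0.694% and 0.121% at 500, 2.34% for *HMGB4* at 2000, and 3.85% and 0.860% unthinned. Of the list genes, 13 were higher in SPT than in somatic cells with a filter of 100 UMIs and 0 lower at a log2 ratio of at least 2. In cattle-yak kept germ-like cells 0 were higher and 8 lower at that ratio, and 2 were higher with cells weighted equally. The shares over all genes at these settings are not given here, so these list counts have no background beside them.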

Other observations

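Besides *HMGB4* and *TNP1*, 46 other genes with at least 1000 yak UMIs had 0 UMIs in the cattle-yak. Of the 48 genes in all, 44 had over 50% of their yak UMIs in the 71 deep SPT-like cells, from 57.2% to 81.3%. The share of all genes with at least 1000 yak UMIs that passed 50% is not given here, so this count has no background. Genes under 50% included ENSBGRG00000008925 (5184 UMIs, 0.212%), ENSBGRG00000025186 (1237 UMIs, 2.91%) and ENSBGRG00000010428 (2153 UMIs, 40.6%). ENSBGRG00000008925 was a top gene of an unnamed kept cluster of 115 cells led by B cell-like markers. A count of 0 in the cattle-yak was thus not limited to genes of deep SPT-like cells. The named genes with the most UMIs after *HMGB4* were *GSG1*, a germ cell gene (5637 UMIs, 72.3% in deep SPT-like cells), *PRSS37*, a testis serine protease homologue needed for sperm function (4826 UMIs, 76.8%), and *SPATA46* (3279 UMIs, 64.3%). *BANF2*, a relative of the chromatin protein BAF, had 2327 UMIs, close to *TNP1*, with 79.5% in deep SPT-like cells, and *PLCZ1*, the sperm phospholipase of egg activation, had 1264 UMIs with 76.9%. These genes were chosen after their values were seen. Among genes with at least 1000 yak UMIs, 0.724% were at 0 in the cattle-yak.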
